A study of Rattus norvegicus with 14 samples.

Results

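A set of 39 genes of the cell cycle and of DNA replication was followed through tenotomy of the rat soleus, the slow postural muscle of the calf. The members were chosen by name, as genes whose products act in S phase (12 genes, with the entry into it), in G2 and mitosis (25 genes) or as D-type cyclins in G1 (2 genes). Of the 39, 37 had a probe set that carried only their own symbol, out of 14217 such genes on the array. Tpx2 had no probe set, and Rrm2 had only probe sets that carried 2 symbols, so neither was analysed here. Of the 37, 32 lay above a signal of 21.6 on at least 4 arrays and are called measured below: 10 of S phase, 20 of mitosis and both D-type cyclins, out of 11065 genes tested.

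The study used 14 Affymetrix arrays, 1 for each soleus, and the muscles came from 12 rats, all of them male Sprague Dawley. The labels do not give the age of the rats, and food and water were freely available. The control group was 4 left soleus muscles with no tenotomy on that leg, from 4 rats. The short-term immobilized group was 6 right muscles whose tendon had been cut 1 week (replicates 1 and 2), 2 weeks (3 and 4), 3 weeks (5) or 4 weeks (6) earlier. The long-term immobilized group was 4 right muscles taken at 6 weeks (replicates 1 and 2), 16 weeks (3) and 22 weeks (4). Rats 61 and 62 gave both their control and their 6-week muscle, so 2 of the control muscles lay opposite a tenotomized leg. Short-term and control muscles came from different rats throughout, so a difference between cohorts of rats cannot be told apart from tenotomy, and nor can left from right.

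A cell that divides first builds D-type cyclins in G1, which switch on the kinases that release E2F transcription factors. E2F targets then copy the DNA in S phase, among them the Mcm helicase and the enzymes that make deoxynucleotides. Another wave of genes, controlled through CCAAT boxes and CHR elements in their promoters, is made in G2 and mitosis, and builds the spindle, separates the chromosomes and cuts the cell apart. The nuclei of mature muscle fibres have left the cycle for good. Dividing cells in a muscle are therefore satellite cells and myoblasts, fibroblasts, immune cells or cells of the vessels.

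The slow fibre markers matched the tissue label, with all 10 at percentile 97.8 of mean signal or above and Myh7, the slow myosin heavy chain, at signals of 7177 to 14564. Signals are the authors' MAS5 probe set intensities, shifted here so that all arrays share 1 median, and signals under 9.53 were raised to that floor. Log2 changes are given relative to the median gene of each comparison, since the median gene itself moved (by -0.34 in short-term muscle against control). The p-values test the change before that subtraction and are adjusted over all genes tested. RNA quality measures differed between the groups, not all in 1 direction. The 3' over 5' ratio of Gapdh was 1.33 ± 0.176 (SD, n = 6) in short-term, 1.78 ± 0.670 (n = 4) in long-term and 2.08 ± 0.574 (n = 4) in control muscle. That of beta-actin ran the other way, at 2.62 ± 0.655, 2.33 ± 0.997 and 1.86 ± 0.375. The spike-ins added before labelling read 85.3 ± 41.8, 55.7 ± 14.4 and 41.0 ± 6.95. The part of these measures in the results below was not tested.

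Many of the cell cycle genes had low signals. Of the 32 measured members, 12 had a geometric mean under the filter signal on the controls and 14 had all 4 controls above it, and 26 had a mean signal over all arrays under that of the median gene, with means from 15.5 (Ccna2) to 892 (Pcna). Signals of different genes depend on their probes and give no order of transcript levels. They do show where a change is read against background: Pcna, the sliding clamp of DNA polymerases, read 820 to 1155 on the 4 controls, and Mcm7, of the replicative helicase, 251 to 368, while Cdkn3, Ccna2, Racgap1, Prc1 and Kif20a each had at least 1 control at the floor. Tyms (thymidylate synthase) and Plk1 (polo-like kinase 1) were at the floor on all 4 controls. These 2, with Bub1b, Aurkb and Kif2c, fell short of the filter with at most 2 arrays above it and mean signals of 11.0 to 17.1. Ccna2 and Birc5 passed it with 4.

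In the first 4 weeks after tenotomy 12 of 24 mitotic genes and both D-type cyclins rose, and 2 of 11 S phase genes did. Over the 37 members with a probe set and no filter on low values, 16 were higher in short-term than in control muscle and 1 was lower, against 8.86% and 30.6% of all 14217 genes. With the filter the same 16 of 32 members were higher and none was lower, against 12.3% and 39.6% of the 11065 genes tested, and 13 of the 16 were called under all 6 ways of scaling the arrays (9.75% of genes, beside 16.8% lower). At an unadjusted p under 0.05 the filtered members gave 18 higher and 2 lower, while 57.9% of all genes passed that level in either direction. Of the 16, 6 (Ccna2, Cdkn3, Kif20a, Mcm3, Racgap1 and Top2a) passed the filter only through short-term arrays, where they are high, so counts over measured members are a description. The median change of the 37 members was 0.76, and 33 of them lay above the median gene, whose change is 0 by construction. The median was 1.03 for the 24 mitotic genes and 0.27 for the 11 of S phase. In whole muscle, more cells of a dividing type and more RNA per cell cannot be told apart.

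**Figure D1:**
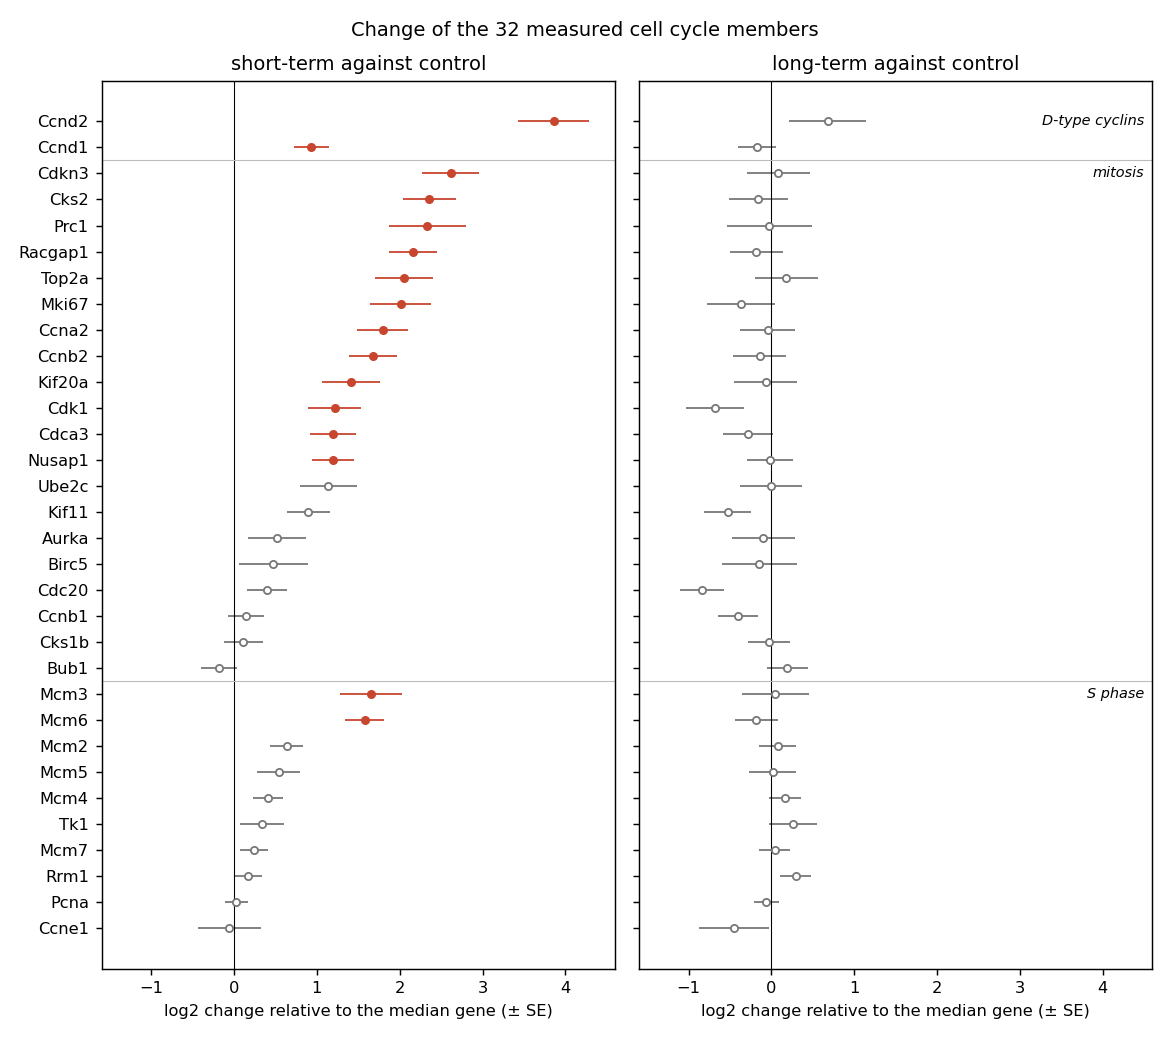
Log2 change relative to the median gene, ± SE, of the 32 measured members in short-term (left) and long-term (right) against control muscle, by role; filled red points passed the adjusted p threshold and open grey ones did not. On the left 16 members are filled, led by Ccnd2 at 3.86, and on the right none is.

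The D-type cyclins, which carry growth signals to the kinases Cdk4 and Cdk6, held the largest change among the members. Ccnd2 read 13.1, 33.9, 15.0 and 11.9 on the 4 controls. It read 137 and 165 at 1 week, 289 and 401 at 2 weeks, 66.3 at 3 weeks and 294 at 4 weeks, so the lowest short-term array lay above the highest control. The change was 3.86 ± 0.43 (SE), with an adjusted p of 1.6e-05. With 3 of the 4 controls under the filter signal, its size rests on values near background. Ccnd1 read 138 to 225 on the controls, far above the filter. Its short-term arrays ran from 177 through a median of 263 to 387, and the lowest of them, at 1 week, lay within the control range. The change of 0.93 ± 0.21 passed the threshold (adjusted p = 0.026), but not on the deposited scale, nor without short-term replicate 3 or 4 or without control replicate 2 or 3 (adjusted p up to 0.0996). All 3 probe sets of Ccnd1 pointed the same way, at 0.72, 0.75 and 1.02 in a fit over probe sets.

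Of the mitotic genes Cdkn3 and Cks2, whose products act on the cyclin-dependent kinases, had the largest changes. The order depends on the floor, since Prc1 lay above Cks2 with no floor (3.58 against 2.36). Cdkn3, a phosphatase that acts on Cdk1 and Cdk2, read 22.3, 9.53, 9.53 and 13.3 on the controls and 37.6 to 87.4 on the short-term arrays, with a median of 69.9. Its change was 2.62 ± 0.35 (adjusted p = 8.2e-05). Cks2, a small subunit that binds these kinases, read 25.01, 10.6, 24.3 and 22.9 on the controls and 46.9 to 119 in short-term muscle, with a median of 90.8. Its change was 2.36 ± 0.32 (adjusted p = 0.00013), and the groups of both genes were apart on every array. Cks1b, the paralog of Cks2, read 124 to 186 on the controls and 96.4 to 229 in short-term muscle, across the control range. Its change was 0.11 ± 0.23 (adjusted p = 0.42, with a 95% interval of -0.38 to 0.60).

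Cdk1 itself, the kinase that drives mitosis, rose too, as did its cyclins Ccnb2 and Ccna2. Ccnb2, a B-type cyclin, ran from 18.5 to 35.2 on the controls and from 49.9 to 79.3 in short-term muscle, a change of 1.68 ± 0.29 (adjusted p = 0.0014). Ccna2, the cyclin of S phase and G2, was at the floor on 3 controls and at 12.1 on the fourth, and ran from 15.4 to 41.0 in short-term muscle. Its change of 1.79 ± 0.31 (adjusted p = 0.0010) depends on the floor, and it was not called with no floor or with a floor at the 40th percentile (0.75). Cdk1 read 34.8, 17.1, 22.4 and 32.8 on the controls and 28.8 to 66.1 in short-term muscle, so the groups overlapped. Its change was 1.21 ± 0.32 (adjusted p = 0.032), and it missed the threshold on the deposited scale and without any 1 of 5 arrays (short-term replicates 1, 5 and 6, control replicates 2 and 3), with an adjusted p of up to 0.11. Ccnb1, the other B-type cyclin, gave 0.14 ± 0.22 (adjusted p = 0.46). Its 2 probe sets disagreed: in a fit over probe sets the one used here, with the higher mean signal, gave -0.04 and the other 1.21 (adjusted p = 0.0070).

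Mki67 and Top2a, which act on chromosomes, rose as well. Mki67, the Ki-67 antigen that coats mitotic chromosomes and marks dividing cells, read 36.5, 20.2, 16.9 and 35.5 on the controls and 88.0, 44.6, 44.6, 114, 126 and 120 on short-term replicates 1 to 6. Every short-term array was above every control, and the change was 2.01 ± 0.37 (adjusted p = 0.0016). Top2a, which untangles sister chromatids, went from 9.53 to 23.9 on the controls to 32.7 to 70.3 in short-term muscle (2.05 ± 0.35, adjusted p = 0.00087). Another probe set of Top2a gave 0.80, with an adjusted p of 0.24 in the fit over probe sets, where the one used gave 1.86.

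The central spindle, on which the cell is cut apart, was represented by Prc1, Racgap1 and Kif20a. Prc1, which bundles its microtubules, was at the floor on 2 controls and at 30.5 and 41.97 on the others, and read 46.4 to 107 in short-term muscle (2.33 ± 0.46, adjusted p = 0.0022, or 3.58 with no floor). Racgap1, of the centralspindlin complex, read 9.53 to 17.7 on the controls and 27.02 to 60.96 in short-term muscle (2.16 ± 0.29, adjusted p = 0.00012). Its other probe set, with a mean signal of 12.1, gave 0.44 (adjusted p = 0.25 in the fit over probe sets). Racgap1 was still called at 1.35, the smallest value over the alternatives. Kif20a, a kinesin needed for cytokinesis, overlapped with the controls at the low end (9.53 to 28.8 against 20.7 to 44.4), and its 1.41 ± 0.35 (adjusted p = 0.017) was lost with a floor at the 40th percentile and without control replicate 2 or 3.

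Nusap1, a microtubule protein of the spindle, rose by 1.19 ± 0.26 (adjusted p = 0.011) and Cdca3, which promotes entry into mitosis, by 1.20 ± 0.28 (adjusted p = 0.017). Both overlapped with the controls, as the lowest short-term array lay below 1 control for Nusap1 and below 2 for Cdca3. Cdca3 was not called without control replicate 2 (adjusted p = 0.053). Ube2c, the ubiquitin-conjugating enzyme of the anaphase-promoting complex, read 34.7 to 73.9 against 16.4 to 44.1 on the controls and just missed the threshold (1.14 ± 0.34, adjusted p = 0.060). Kif11, the kinesin that pushes the spindle poles apart, did so too (0.90 ± 0.26, adjusted p = 0.085). The checkpoint kinase Bub1 just missed the threshold on the lower side (-0.18 ± 0.22, or -0.52 before the median gene was subtracted, adjusted p = 0.057). Aurora kinase A (0.52), the chromosomal passenger Birc5 (0.47) and Cdc20, which activates the anaphase-promoting complex (0.40), had adjusted p-values of 0.68 to 0.86.

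**Figure D2:**
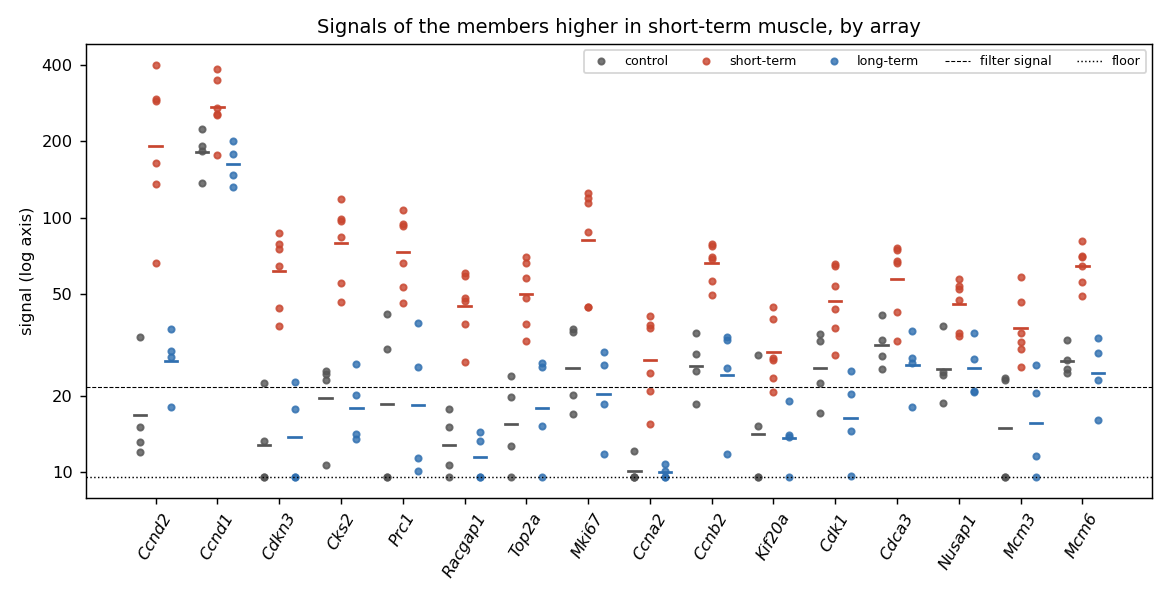
Signal on a log axis of the 16 members higher in short-term muscle, with 1 point per array and a bar at the geometric mean of each group; the dashed line is the filter at 21.6 and the dotted line the floor at 9.53. For 11 of the 16 every short-term array lies above every control, while Ccnd1, Cdk1, Kif20a, Cdca3 and Nusap1 overlap.

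Of the 32 measured members 11 had every short-term array above every control, against 6.90% of all genes tested, and all 11 are among the 16 that rose. Ccna2, Cdkn3, Mcm3, Racgap1 and Top2a are among the 11 and passed the filter only through short-term arrays, so this count is a description. For 9 of the 16 the geometric mean of the controls lay under the filter signal, and only 3 had all controls above it, so many of these fold changes rest on control values near background and on the floor. For 9 of the 16 no array was at the floor.

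Promoters are shown for the mitotic genes with the largest changes whose promoter was available, because these genes moved together and the elements named above are known for such genes. They are the 250 bases before the start in the RefSeq annotation of the GRCr8 assembly, which held a promoter for 30 of the 39 members. Capitals mark the CCAAT box, which is read as ATTGG where it lies on the opposite strand, and the CHR core TTTGAA, which is read there as TTCAAA. The promoters are Cdkn3 at chr15:22502136-22502385 (plus strand), Cks2 at chr17:13727520-13727769 (minus strand), Prc1 at chr1:143659231-143659480 (plus strand) and Top2a at chr10:84473094-84473343 (minus strand), each written 5' to 3' on the strand of the gene.
Cdkn3: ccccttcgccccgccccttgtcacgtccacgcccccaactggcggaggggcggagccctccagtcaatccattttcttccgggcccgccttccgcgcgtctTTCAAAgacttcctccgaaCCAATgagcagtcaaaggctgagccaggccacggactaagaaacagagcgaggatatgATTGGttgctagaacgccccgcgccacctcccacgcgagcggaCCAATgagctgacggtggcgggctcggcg
Cks2: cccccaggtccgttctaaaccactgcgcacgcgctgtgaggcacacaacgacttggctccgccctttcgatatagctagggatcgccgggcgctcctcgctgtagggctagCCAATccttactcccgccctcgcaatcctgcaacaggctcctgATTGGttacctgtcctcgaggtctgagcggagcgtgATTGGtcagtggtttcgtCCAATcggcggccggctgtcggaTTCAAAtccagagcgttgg
Prc1: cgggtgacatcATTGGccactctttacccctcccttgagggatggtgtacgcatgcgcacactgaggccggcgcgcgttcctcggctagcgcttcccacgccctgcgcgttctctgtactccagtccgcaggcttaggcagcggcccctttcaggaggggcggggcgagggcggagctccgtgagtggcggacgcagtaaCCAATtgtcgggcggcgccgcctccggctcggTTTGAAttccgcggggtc
Top2a: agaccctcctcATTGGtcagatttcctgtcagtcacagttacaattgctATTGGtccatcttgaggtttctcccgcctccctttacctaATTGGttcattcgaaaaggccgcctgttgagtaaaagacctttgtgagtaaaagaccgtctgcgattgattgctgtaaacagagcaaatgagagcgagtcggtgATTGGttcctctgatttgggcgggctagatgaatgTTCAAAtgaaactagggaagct

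In Cks2, Prc1 and Top2a the CHR core began 19, 18 and 22 bases before the start, with the nearest CCAAT box further out at 42, 50 and 57 bases. In Cdkn3 the order differed, with the CHR core at 149 bases and CCAAT boxes at 130, 72 and 29. A CCAAT box was found in 12 of 12 promoters of members that rose and in 9 of 14 of measured members that did not, against 34.3% of 27457 promoters. A CHR core was found in 7 of 12 and in 4 of 14, against 16.0% of promoters. Split by role instead, a CCAAT box was in 16 of 20 mitotic and 6 of 10 S phase promoters. A CHR core was in 10 of 20 and 1 of 10. The E2F sites TTTCGCGC or TTTGGCGC, searched on both strands like the others, with overlapping matches counted once per promoter, were found in 5 of 10 S phase promoters and in 1 of 20 mitotic ones, against 0.670% of all. Split by rise, E2F sites were in 2 of 12 promoters of members that rose and 3 of 14 of those that did not. Matches to short words are a description of these windows, and the binding of a factor was not measured.

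Of the 11 S phase genes 2 rose with no filter, against 8.86% of all genes. Both belong to the Mcm2-7 helicase. Of the 6 subunits of that helicase, which unwinds DNA at the fork, the other 4 did not pass the test. Mcm6 read 25.4, 24.5, 27.5 and 33.0 on the controls and 49.4 to 81.1 in short-term muscle, with no overlap (1.58 ± 0.23, adjusted p = 0.00046). Mcm3 was at the floor on 2 controls and at 23.5 and 23.0 on the others, and read 26.0 to 58.6 (1.65 ± 0.37, adjusted p = 0.0077, or 1.03 with the floor at the 40th percentile). Mcm2 read 74.5, 70.5, 61.6 and 95.4 on the controls and 58.9 to 117 in short-term muscle, across the control range (0.63 ± 0.20, adjusted p = 0.23). Mcm5 read 27.3 to 44.2 and 24.3 to 63.6 (0.54 ± 0.26, adjusted p = 0.53). Mcm4 gave 0.41 and Mcm7 0.24. The change was 0.03 for Pcna, 0.17 for Rrm1, the large subunit of ribonucleotide reductase, 0.34 for Tk1, thymidine kinase, and -0.06 for Ccne1, the cyclin of the G1/S step. None of these 8 passed the threshold. With no filter Pcna was called lower (-0.11, adjusted p = 0.046), while 30.6% of all genes were.

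Other genes of the cycle, listed beside the members but not among them, were counted in the same fit, where 12.3% of all genes were higher and 39.6% lower. Of 32 other measured G2 and mitosis genes, 8 rose and 2 fell, with a median of 0.66. They were led by the kinesin Kif15 (1.83 ± 0.31, adjusted p = 0.0010), the kinetochore protein Nuf2 (1.54), the condensin subunit Smc4 (1.33) and the kinesin Kif22 (1.63). Bub3 (-0.32) and Stmn1 (-0.20) fell. Of 44 other replication and G1/S genes, 3 rose and 6 fell, with a median of 0.17. Chaf1a, which loads histones behind the fork (1.51), the checkpoint kinase Chek1 (1.10) and the transcription factor E2f1 (1.17) rose. Pold2, a subunit of DNA polymerase delta (-0.74), Orc3 of the origin complex (-0.73), the dUTPase Dut (-0.51) and the phosphatase Cdc25a (-0.76) were the leading genes that fell.

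Of 21 measured inhibitors and quiescence genes 3 rose and 6 fell, with a median of -0.07. Over all genes tested 12.3% were higher and 39.6% lower, so these counts show nothing particular to inhibitors. Cdkn1c, the kinase inhibitor p57, rose by 2.45 ± 0.45 (adjusted p = 0.0011), Rbl1, the pocket protein p107, by 1.80 ± 0.30 and Cdkn2c, the Cdk4 and Cdk6 inhibitor p18, by 1.33 ± 0.30. Wee1, which holds Cdk1 inactive (-0.89), E2f4 (-0.41), Cdkn1b, the inhibitor p27 (-0.36), and Tob1 (-0.47) led those that fell. Cdkn1a, the inhibitor p21, gave 1.02 ± 0.54 (adjusted p = 0.30). Among 12 other cyclins and kinases, the third D-type cyclin Ccnd3 rose by 1.32 ± 0.24 (adjusted p = 0.0032), as did Cdk5 (1.23), while Ccnk, Ccnc, Ccnh and Mnat1 fell.

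Macrophage and fibroblast markers moved with these genes, while 1 satellite cell marker and no endothelial marker rose. Over all genes tested, 12.3% were higher and 39.6% lower. Of 15 macrophage markers 11 rose and none fell, with a median of 1.87, and their summed signal was 6990 to 14090 in short-term, 3601 to 4495 in control and 2861 to 5040 in long-term muscle. Of 12 fibroblast markers 10 rose and none fell, with a median of 1.70 and summed signals of 32673 to 61428, 11503 to 18920 and 6162 to 19679. No macrophage or fibroblast marker was at the floor on all controls. Of 9 satellite cell and myoblast markers with a probe set 1 rose, Mymk, which fuses myoblasts (1.90 ± 0.40, adjusted p = 0.0043), and 3 fell, with a median of 0.04. Of 10 endothelial markers none rose and 1 fell, Kdr (-0.63 ± 0.17, adjusted p = 0.00021), a receptor for VEGF. Of 11 lymphocyte markers with a probe set 5 were measured and 2 rose, and Cd3d, Ms4a1 and Nkg7 were at the floor on all controls. The part of these cells in the cell cycle result was not tested.

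By week, the mitotic genes were above the controls on each short-term array and not on the long-term ones. The median deviation of the 24 mitotic genes from the control mean was 1.24 and 0.69 on the 1-week arrays, 0.87 and 1.33 at 2 weeks, 1.41 at 3 weeks and 1.42 at 4 weeks, while the controls ran from -0.24 to 0.26. It was -0.01 and 0.08 at 6 weeks, -0.37 at 16 weeks and -0.34 at 22 weeks. The median of the 11 S phase genes lay between 0.27 and 0.76 on the short-term arrays. The D-type cyclins read 2.09 and 1.96 at 1 week, 2.91 and 3.19 at 2 weeks, 1.44 at 3 weeks and 2.73 at 4 weeks. The single 3-week array had the lowest short-term signal of Ccnd2 and the highest of Mki67.

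**Figure D3:**
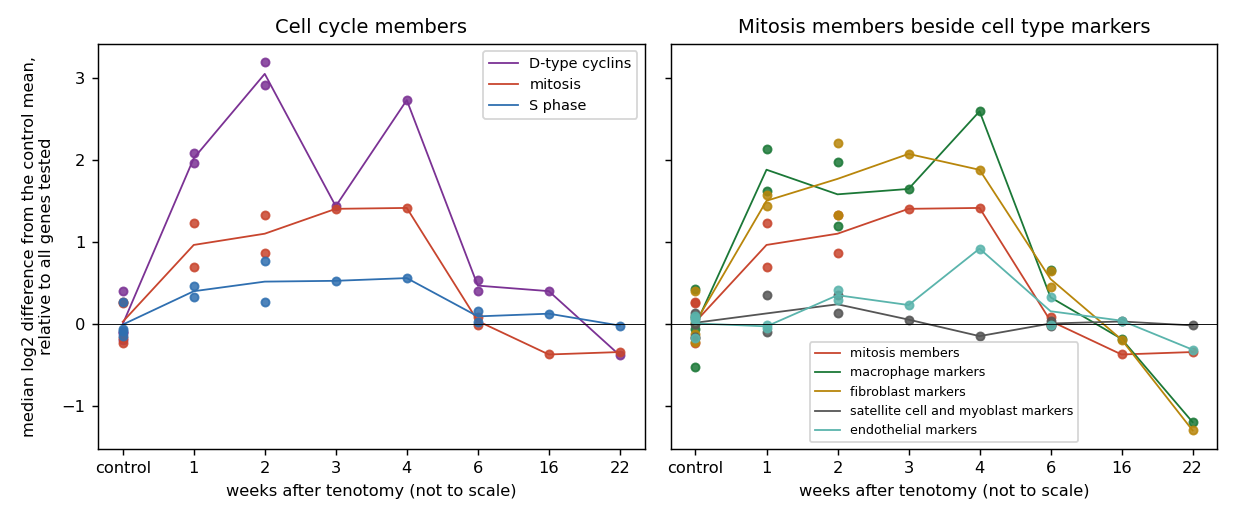
Median log2 difference from the control mean, relative to all genes tested, by week after tenotomy, with 1 point per array and lines through the mean of each week; on the left the members by role, on the right the mitotic members beside 4 lists of cell type markers. The mitotic members, macrophage and fibroblast markers are raised from 1 to 4 weeks and lie within or below the range of the control arrays from 16 weeks, while satellite cell markers run from -0.15 to 0.35 on the tenotomized arrays.

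At 1 week 9 members were higher and 1 lower than in control muscle, against 6.16% and 28.7% of all genes, and 6 of the 9 were called under all 6 scalings (4.47% of genes). Ccnd2 was first among them (3.49 ± 0.39, adjusted p = 0.00029), with Cdkn3 (2.39), Top2a (2.07), Prc1 (2.02), Cks2 (2.00), Racgap1 (1.83), Ccna2 (1.56), Mcm6 (1.46) and, with the highest adjusted p, Ccnb2 (adjusted p = 0.048). The lower one was Bub1 (-0.40), under 1 of the 6 scalings. Fewer members were called higher at 1 week without short-term replicate 1. That fit leaves 1 array at that week, so it cannot tell a feature of the array or of the members from the loss of an array. At 2 weeks 11 members were higher and 1 lower, against 9.84% and 37.6% of all genes. Ccnd2 reached 4.72 ± 0.39 (adjusted p = 3.6e-05), and Mki67 (1.85) and Ccnd1 (1.40) joined the 9 genes called at 1 week. The lower one was Pcna (-0.08), under 2 of the 6 scalings. Fewer were called at 2 weeks without short-term replicate 4, with the same limit. Without control replicate 2 or 3, 7 members were higher at 2 weeks.

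The 2 time points were not told apart. At 2 weeks against 1 week no member passed the threshold, against 0.0181% of genes higher and 0.0542% lower. At an unadjusted p under 0.05 there were 2 of the 32 members, both higher: Ccnd2 (1.21 ± 0.45, adjusted p = 0.31) and Ccnd1 (0.81 ± 0.26, adjusted p = 0.26). Of the 11065 genes tested 1441 passed that level in either direction, so this count shows nothing particular to the members. Within the same week the arrays differed. Of the 16 members that rose over the whole group, short-term replicates 4 and 6 each held the highest signal for 6, and replicates 2 and 3 held the lowest for 7 and 8.

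**Figure D4:**
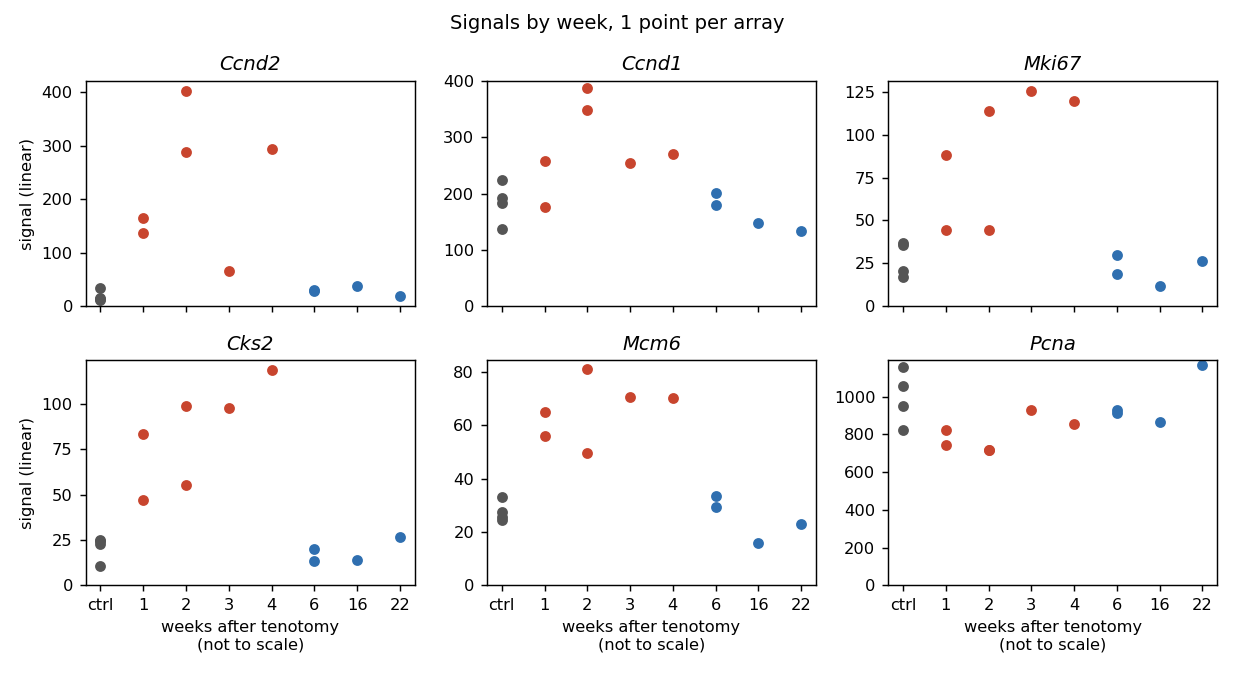
Signal on a linear axis starting at 0 for 6 members by week, with 1 point per array (grey control, red short-term, blue long-term). Ccnd2, Mki67, Cks2 and Mcm6 are raised at 1 to 4 weeks and near control signals from 6 weeks, Ccnd1 is highest at 2 weeks, and Pcna stays between 714 and 1169 throughout.

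In long-term muscle the cell cycle genes were no longer told apart from control. No member passed the threshold in limma's test, and neither did any of the 11065 genes (0% higher, 0% lower). At an unadjusted p under 0.05 no member was higher and 1 was lower, against 217 genes (1.96%). The 32 changes ran from -0.84 (Cdc20) to 0.68 (Ccnd2), with 95% intervals reaching from -1.42 to 1.66. Cdc20 read 19.4, 24.4, 16.5 and 23.9 in long-term muscle and 47.1, 32.9, 34.1 and 34.2 on the controls, with no overlap, against 0.759% of genes. At 6 weeks against control no member passed either, nor did any gene, and at an unadjusted p under 0.05 none was higher and 1 lower, against 485 genes (4.38%).

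Rats 61 and 62 allow a comparison of both legs of 1 animal at 6 weeks, with no test. Ccnd2 was higher in the tenotomized leg of each, by 1.32 and 1.28 relative to the median gene of that pair (29.9 and 28.4 against 11.9 and 13.1). Over the 32 members the median difference was -0.14 and -0.10. Members more than 1 higher numbered 2 in rat 61 and 1 in rat 62, against 1.75% and 2.68% of all genes tested. Those more than 1 lower numbered 2 in each, against 1.41% and 1.43%.

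The fall from short-term to long-term muscle was tested directly, and it took in 2 genes beyond those that rose. Of the 32 measured members 18 were lower in long-term muscle and 2 were higher, against 12.1% and 42.4% of all genes, and 17 of the 18 were lower under all 6 scalings (10.6%). With no filter 19 of 37 were lower and 2 higher, against 8.74% and 32.3% of all genes, the added one being Aurkb. The 18 held all 16 that rose in short-term muscle, with Kif11 and Cdc20 besides. The comparison shares the short-term arrays with the earlier one. Ccnd2 fell by 3.19 ± 0.43 (adjusted p = 8.4e-05). The change was -2.54 for Cdkn3, -2.53 for Cks2, -2.37 for Prc1, -2.35 for Racgap1 and -1.90 for Cdk1. Mki67 fell by 2.38, and read 18.5, 29.7, 11.7 and 26.4 on the long-term arrays. For 14 of the 32 members every long-term array lay below every short-term array, against 5.96% of genes. That count too is a description, since Ccna2, Cdkn3, Kif20a, Racgap1 and Top2a among them passed the filter only through short-term arrays.

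Kif11 read 22.3 to 40.8 in short-term and 19.5, 15.5, 12.9 and 13.5 in long-term muscle (-1.43 ± 0.26, adjusted p = 0.0030), with the controls at 15.6 to 25.2. Its other probe set, with a mean signal of 10.2, gave -0.35 in the fit over probe sets (adjusted p = 0.17). Cdc20 read 28.3 to 55.4 in short-term muscle and fell by 1.25 ± 0.24 (adjusted p = 0.0062). It has 5 probe sets, whose changes in the fit over probe sets ran from -1.03 for the one used to -0.08. The 2 members called higher, Bub1 (0.37 ± 0.22, adjusted p = 0.010) and Rrm1 (0.12 ± 0.17, adjusted p = 0.025), were called under 3 and 1 of the 6 scalings, and 42.4% of all genes were called in that direction. Macrophage markers fell as well, 13 of 15, and so did 11 of 12 fibroblast markers, while 12.1% of all genes were called lower.

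Across the 10 tenotomized arrays, the slope on log2 of the week was lower for 11 members and higher for 2, against 5.49% and 29.8% of genes. Of the 11, 6 were called under all 6 scalings (2.22% of genes), namely Ccnd2 (-0.93 per doubling of time), Cdkn3 (-0.77), Prc1 (-0.75), Racgap1 (-0.69), Top2a (-0.64) and Mcm6 (-0.55). Without the 22-week array no member had a called slope, and without short-term replicate 1, 3 or 4 or long-term replicate 2 or 3 the lower slopes numbered 7. The slope uses the same arrays as the direct test of long-term against short-term muscle. It does not show a steady decline, since the mitotic median was 1.24 and 0.69 at 1 week and 1.42 at 4 weeks.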

How the data were processed

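The authors' deposited values are linear probe set intensities computed with MAS5, per the submitters' processing notes; its version, scaling target and detection calls are not given in the sources used here. The analysis started from these values. On the log2 scale, every array was moved by a constant to share 1 median over its 31099 probe sets, and values under the pooled 25th percentile (9.53) were raised to it. The 57 manufacturer's control probe sets were left out. Of the rest, 20826 carried 1 gene symbol in the platform annotation, 436 several and 9780 none. A gene with several was represented by the one of highest mean, and genes above the pooled 40th percentile (21.6) on at least 4 arrays were tested.

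All arrays entered 1 limma 3.58.1 fit (R 4.3.3) with a mean per group and an intensity trend in the variance, and another with a mean per week. Tests were 2-sided, with Benjamini-Hochberg adjustment over all genes tested and a threshold of 0.05. Intervals are 95% intervals of limma. Weeks 3, 4, 16 and 22 hold 1 array each and have no test of their own. The slope used the 10 tenotomized arrays. Precision is limited by the number of arrays, which hold no counts. No 2 arrays were identical, with correlations of 0.85 to 0.94. The 6 scalings were the common median over all probe sets, quantile normalization, the deposited scale, a shared 2% trimmed mean, a shared 75th percentile and a common median over the genes tested. The fit was tested on simulated data.

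The members, gene lists and tests were chosen with earlier results of these data known. Members past the threshold in short-term against control or in long-term against short-term muscle were described by array, with the 3 largest changes among the others (Ube2c, Mcm2 and Mcm5). Of each other list, the 4 genes with the smallest adjusted p in each direction are named, with Cdkn1a chosen after its values were seen. Promoters are from RefSeq (GRCr8).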

Additional observations from a re-analysis of the deposited data

Results flagged for a closer look

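In 5 of 96 groups of 4 or 6 arrays, 1 array stood apart from the rest by Dixon's criterion, about the number that chance gives at 1 group in 20. Values here are on the log2 scale, before any subtraction. Tk1 read 4.62 on short-term replicate 3 (a signal of 24.5, the next being 50.9). Cks2 read 3.41 on control replicate 2 (10.6, the next being 22.9). Ccna2 read 3.60 on control replicate 4 (12.1, with the other controls at the floor). Cdc20 read 5.56 on control replicate 1 (47.1, the next being 34.2). Ube2c read 3.79 on long-term replicate 3 (13.8, the next being 35.1).

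Signals differed between short-term and long-term muscle for 20 members by the direct test. In long-term muscle 18 of them were lower and 2 higher, while 12.1% of all genes were lower and 42.4% higher. These groups came from different rats, so a difference between cohorts cannot be told apart from the time since tenotomy. The log2 difference of long-term from short-term muscle, relative to the median gene, was -3.19 for Ccnd2, -2.54 for Cdkn3, -2.53 for Cks2, -2.38 for Mki67, -2.37 for Prc1 and -2.35 for Racgap1. It was -1.90 for Cdk1, -1.87 for Top2a, -1.85 for Ccna2, -1.83 for Ccnb2, -1.77 for Mcm6 and -1.61 for Mcm3. It was -1.49 for both Cdca3 and Kif20a, -1.43 for Kif11, -1.25 for Cdc20, -1.22 for Nusap1 and -1.12 for Ccnd1. It was 0.37 for Bub1 and 0.12 for Rrm1.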

How the results depend on the processing

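No count of members in long-term against control, 6 weeks against control or 2 weeks against 1 week left 0 under any alternative. In the other comparisons the count of members moved by over 1.5 times as follows. These counts describe the dependence on processing only, since the share of all genes called under each setting is not given beside them. The filter at the 60th percentile left 11 members tested: 4 were higher in short-term muscle, 4 lower in long-term than in short-term muscle, 2 higher at 1 week, 4 higher and 2 lower at 2 weeks, and 4 had a lower slope. With no filter 1 member was lower in short-term muscle and 0 at 1 week. Of the 2 members higher in long-term than in short-term muscle, 0 were left on the deposited scale, with the 75th percentile and with the trimmed mean, and 1 with quantile normalization and with the median over the genes tested. The 1 member lower at 1 week became 0 under each of these 5 scalings and with the floor at the 40th percentile. The 1 lower at 2 weeks became 0 under 4 of them (the deposited scale kept it) and with no intensity trend, and 2 with the mean of all probe sets. The 2 with a higher slope became 0 on the deposited scale and with the trimmed mean, and 1 under the other 3 scalings and with no intensity trend, and the 11 with a lower slope became 6 on the deposited scale and with quantile normalization. Array weights gave 2 lower in short-term muscle, 2 lower at 1 week, and 6 higher and 0 lower at 2 weeks. Leaving out 1 array at a time gave 12 to 17 higher and 0 to 2 lower in short-term muscle, 17 to 19 lower and 0 to 2 higher in long-term against short-term muscle, 1 to 10 higher and 0 to 3 lower at 1 week, 3 to 11 higher and 0 to 3 lower at 2 weeks, and 0 to 13 lower and 0 to 2 higher slopes. Where a setting leaves 1 array at a week, that array is assumed to vary like the other groups. In long-term against short-term muscle Kif20a was not called with no floor or with the floor at the 40th percentile, and Ccna2 not with the latter. Rrm1, higher by 0.12 in long-term than in short-term muscle, ran from -0.026 to 0.22 when 1 array was left out, and it turned without long-term replicate 4. The cause of these moves was not tested, apart from the fewer members that the stricter filter leaves.

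Rats 61 and 62 each gave 2 arrays, so rat was tried as a replicate block. The correlation within a rat was estimated at 0.11 in a design with 2 such pairs, and the block gave 16 higher in short-term muscle, 18 lower in long-term against short-term muscle and 0 in either comparison of long-term or 6-week muscle with control, which are the counts without it.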
